A study of Mus musculus with 2 samples.

Results

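The heme and iron handling genes described here are 8 genes that bring in heme, break it down, and store, export or take up iron: Slc48a1, Hmox1, Blvrb, Fth1, Ftl1, Slc40a1, Slc11a1 and Tfrc. They were taken by symbol from the 27998 genes of the deposited matrices, and all 8 were found. Their unique molecular identifiers (UMIs, 1 per captured RNA molecule) were summed over the cells of each authors' cell label in each library. The cells were CD45+ DAPI- leukocytes from YUMM1.7 mouse melanomas in mice that carry human APOE in place of mouse Apoe, either the APOE2 or the APOE4 allele. In each genotype 6 mice received 100000 YUMM1.7 cells under the flank skin with growth factor reduced Matrigel, and tumours were taken 19 days later. Sorted cells of the 6 mice, 10000 from each, were pooled into 1 library per genotype for 10x Genomics 3′ sequencing. The labels name no strain, sex or age of the mice. Neither genotype was replicated, so no p-value is given, and every interval below is a 95% interval that covers counting error only, not the spread between mice or between cells. UMI levels of pooled cells cannot tell more RNA in each cell from more cells of a high-level kind within a label.

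The APOE2 library held 4665 annotated cells with a median of 7160 UMIs, and the APOE4 library 5385 cells with a median of 5560. Of the 26 labels, 19 had at least 50 cells in each library, and 8 barcodes of annotated cells occurred in both libraries. Levels are in CPM, the UMIs of a gene per 1000000 UMIs of the label. Labels were made by the authors by clustering, from genes that may include these, so levels across labels are a description. Orders of levels and counts of labels below are over those 19 labels, and smaller labels are named with their cell numbers. Macrophage markers were high in the labels Mø cluster 1 (summed level 16011 CPM in APOE2 and 14195 in APOE4) and Mø cluster 2 (11138 and 9509 CPM). The label M-MDSC 1, whose name stands for monocytic suppressor cells, carried neutrophil markers at 50057 and 42624 CPM and monocyte markers at 253 and 703 CPM. It is therefore called by its label only. Red cell RNA was close to absent: 8 haemoglobin UMIs in 7 APOE2 cells and 7 in 5 APOE4 cells, with Alas2 and Slc4a1 at 0 UMIs in both libraries.

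Macrophages clear dying cells and red cells, and the heme they take up is moved to the cytosol and opened by heme oxygenase, which frees the iron and leaves biliverdin for biliverdin reductase. The freed iron is held in ferritin, a shell of heavy and light chains, or leaves the cell through ferroportin, while transferrin receptor brings iron in. Iron regulatory proteins bind a short hairpin, the iron-responsive element, in the messenger RNA: at the 5′ end of ferritin and ferroportin messages it blocks translation, and at the 3′ end of the transferrin receptor message it protects the RNA from decay.

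The elements are shown because they divide the 8 genes by a control that acts after transcription, which UMI counts of ferritin and ferroportin messages do not see. They were found in the GENCODE M21 transcripts of the mouse build GRCm38 (mm10) by searching the sense strand of untranslated regions for CNNNNNCAGTGN, followed by 5 bases that can pair with the 5 bases before CAGTGN. Each is given 5′ to 3′ as 30 bases, with the 6 loop bases in capitals and the stem and flanks in lower case. The first 3 lie in 5′ untranslated regions and the last 4 in the 3′ untranslated region of Tfrc.
Fth1, chr19:9982732-9982761, plus strand: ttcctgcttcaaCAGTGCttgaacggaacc
Ftl1, chr7:45459778-45459807, minus strand: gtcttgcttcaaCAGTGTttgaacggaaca
Slc40a1, chr1:45925464-45925493, minus strand: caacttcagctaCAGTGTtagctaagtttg
Tfrc, chr16:32631219-32631248, plus strand: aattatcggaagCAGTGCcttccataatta
Tfrc, chr16:32631598-32631627, plus strand: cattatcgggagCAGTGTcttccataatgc
Tfrc, chr16:32631663-32631692, plus strand: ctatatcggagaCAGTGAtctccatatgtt
Tfrc, chr16:32631710-32631739, plus strand: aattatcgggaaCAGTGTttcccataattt
The same pattern was present in the 5′ untranslated region of 28 of 20561 genes (0.136%) and in the 3′ untranslated region of 127 of 20954 genes (0.606%). Hmox1, Blvrb, Slc11a1 and Slc48a1 had no match, and neither had any of 52 other heme and iron genes listed below. No match says only that the pattern with all 5 pairs is not in these regions. The letters alone, or a hairpin with an unpaired base in these 5 positions, would not be counted.

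Slc48a1 (ENSMUSG00000081534, chr15:97778520-97792692, plus strand) encodes HRG1, the transporter that moves heme out of the phagolysosome. Its level was highest in Mø cluster 2, at 141 CPM in APOE2 (591 UMIs) and 119 CPM in APOE4 (191 UMIs), and ran from 15.1 CPM (Migratory DCs, APOE2) upwards over the 19 labels. Mø cluster 1 had 67.1 and 59.5 CPM, Monocytic DCs 65.6 and 44.3 CPM, and cDC 2 55.5 and 39.9 CPM. The APOE4 to APOE2 ratio was below 1 in 12 of the 17 labels with at least 20 UMIs, and 5 of those intervals lay wholly below 1. They were Mø cluster 2 (0.844, interval 0.713 to 0.995), Monocytes 1 (0.775, 0.599 to 0.998), Monocytes 2 (0.677, 0.481 to 0.960), Monocytic DCs (0.676, 0.536 to 0.847) and cDC 2 (0.719, 0.574 to 0.897). No label reached a 1.5-fold difference, the size used below for a call, which 6.73% to 16.2% of all genes reached upwards and 6.79% to 11.1% downwards in these 19 labels.

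**Figure D1:**
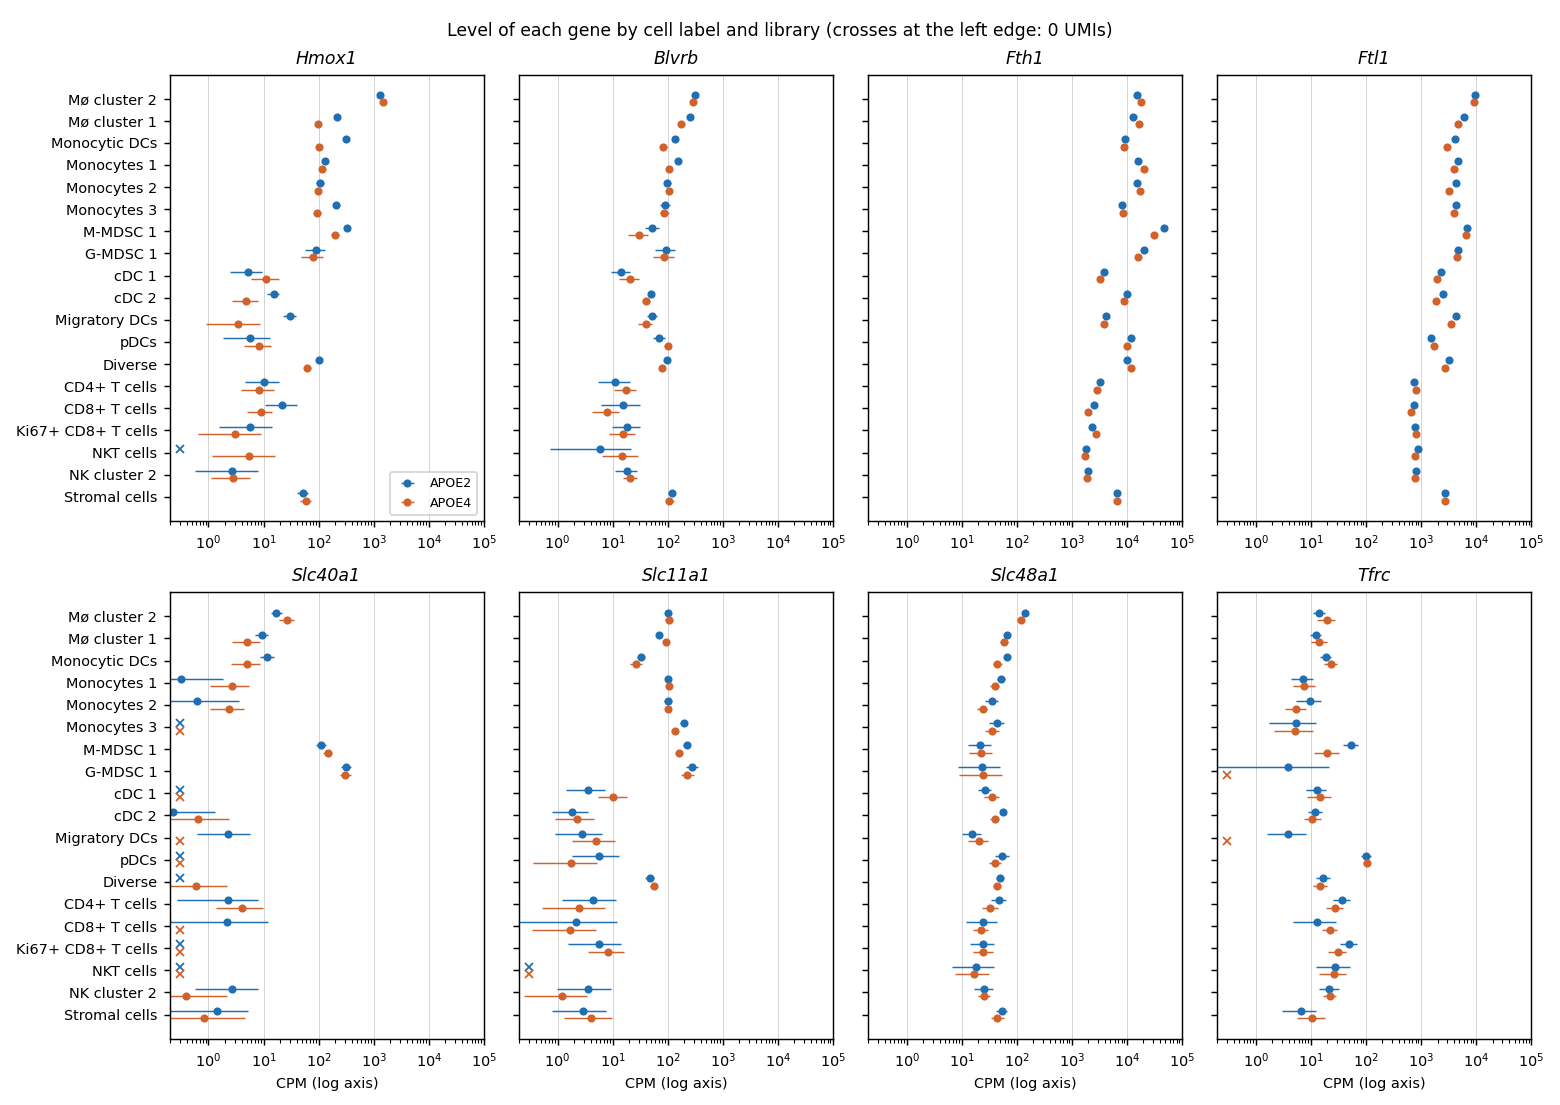
Level of each of the 8 genes (CPM, log axis) in the 19 labels with at least 50 cells in each library, APOE2 in blue and APOE4 in orange, with exact Poisson 95% intervals and crosses at the left edge for 0 UMIs. Hmox1 stands highest in Mø cluster 2 (1277 and 1452 CPM), Fth1 in M-MDSC 1 (48062 and 31452 CPM), Slc40a1 in G-MDSC 1 (315 and 306 CPM) and Tfrc in pDCs (99.9 and 104 CPM).

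Hmox1 (ENSMUSG00000005413, chr8:75093621-75100589, plus strand) encodes heme oxygenase 1, the inducible enzyme that opens the heme ring. Mø cluster 2 held 1277 CPM in APOE2 (5359 UMIs in 398 cells) and 1452 CPM in APOE4 (2334 UMIs in 161 cells). This label made up 8.53% of APOE2 cells and 2.99% of APOE4 cells, and it carried 56.3% and 54.8% of all Hmox1 UMIs of its library. M-MDSC 1 followed with 329 and 198 CPM, Monocytic DCs with 314 and 102 CPM, Mø cluster 1 with 219 and 96.7 CPM, and Monocytes 3 with 211 and 94.9 CPM. Monocytes 1 (129 and 117 CPM) and Monocytes 2 (107 and 96.0 CPM) had overlapping counting intervals in each library. Lymphocytes and dendritic cells were far lower, such as NK cluster 2 at 2.72 and 2.78 CPM.

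With every cell thinned to 1500 UMIs, 52.8% of APOE2 and 40.6% of APOE4 cells of Mø cluster 2 had an Hmox1 UMI. In M-MDSC 1 the shares were 23.4% and 18.4%, and in Mø cluster 1 they were 17.4% and 7.76%. Lymphocyte labels had low shares: 0.488% and 0.486% in NK cluster 2, 3.07% and 0.685% in CD4+ T cells and 2.70% and 0.847% in CD8+ T cells. The shares of the 3 labels above exceeded all of these. Free RNA itself was not measured here, and its part in any of these shares, or in their change between libraries, was not tested. Thinning left out 348 APOE2 and 340 APOE4 cells with fewer UMIs.

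A called difference means a ratio of at least 1.5 in either direction in a gene with at least 20 UMIs. Among the 14 of the 19 labels with that many Hmox1 UMIs, the APOE4 level was called lower in 8 and higher in 1, the label cDC 1. The ratio was 0.442 (interval 0.384 to 0.506) in Mø cluster 1, 0.602 (0.493 to 0.733) in M-MDSC 1, 0.325 (0.282 to 0.372) in Monocytic DCs, 0.450 (0.357 to 0.565) in Monocytes 3 and 0.624 (0.517 to 0.752) in the label Diverse. Of all genes tested, the share called lower was 9.54% in Mø cluster 1, 10.1% in M-MDSC 1, 9.97% in Monocytic DCs, 7.52% in Monocytes 3 and 9.52% in Diverse. The others were cDC 2 (15.3 and 4.87 CPM, with 8.35% of all genes called lower), Migratory DCs (30.3 and 3.37 CPM, 9.44%) and CD8+ T cells (22.0 and 8.94 CPM, 11.1%), where the interval of the ratio reached 1.00. In cDC 1 the counts were 10 and 13 UMIs, 11 of the latter in 1 cell, the interval of the ratio included 1 (0.882 to 5.55), and 8.65% of all genes were called higher. The Skin resident Mø label, outside the 19, had 56.0 CPM in 47 APOE2 cells and 214 CPM in 8 APOE4 cells (56 and 43 UMIs, of which 34 and 24 in single cells), a ratio of 3.81 (2.50 to 5.78). In Migratory DCs the summed macrophage markers moved the same way, from 596 to 149 CPM, and 1 APOE2 cell held 26 of the 54 Hmox1 UMIs. In cDC 2 the macrophage markers went from 917 to 340 CPM. Their part in these differences was not tested.

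Single cells carried much of the Hmox1 signal. In Mø cluster 2 the 10% of cells with the most Hmox1 held 68.4% of its UMIs in APOE2 and 82.5% in APOE4, and the highest cells had 348 and 341 UMIs. The ratio there was 1.14 (interval 1.08 to 1.19) over summed counts, a log2 fold of 0.19, but the log2 fold was -0.23 with all cells thinned to 1500 UMIs and -0.25 without the 10% of cells with the most UMIs. The direction in Mø cluster 2 therefore depended on how cells were weighted, and the share of cells with a UMI went against the CPM. In Mø cluster 1 the log2 fold was -1.18 as found, -1.69 thinned, -2.06 in cells under 5% mitochondrial UMIs and -1.63 without the cell with the most Hmox1 UMIs in each library (145 and 90 UMIs). In Monocytes 3, where 1 APOE2 cell had 97 UMIs, it was -1.15 as found and -0.38 without that cell and the highest APOE4 cell. In Monocytic DCs, with single cells of 356 and 170 UMIs, it was -1.62 as found, -2.85 without the highest cells, -3.61 in cells under 5% mitochondrial UMIs and -0.86 without the 10% of cells with the most UMIs.

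**Figure D2:**
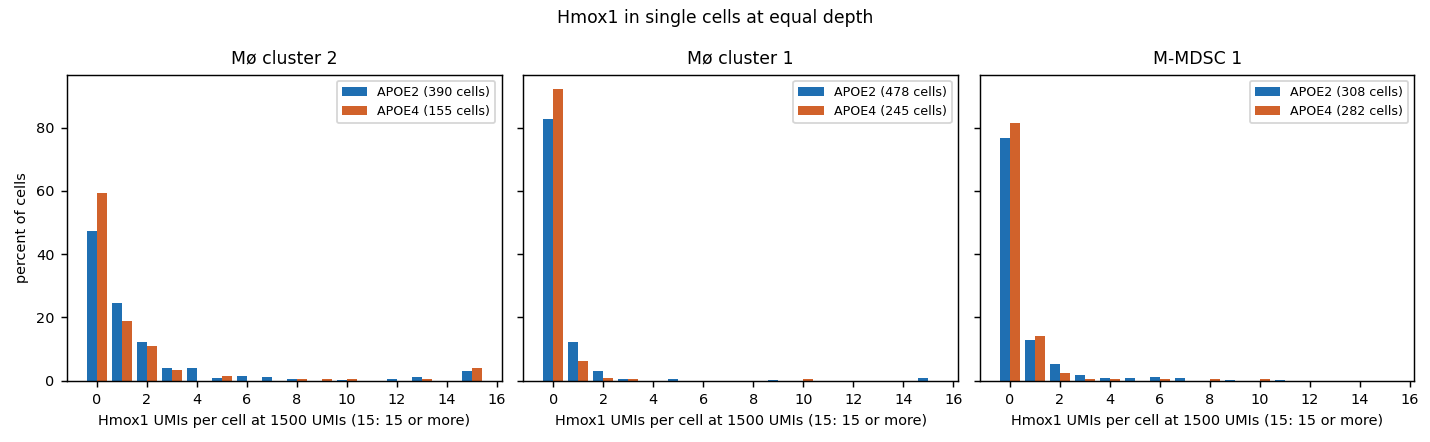
Share of cells (percent) by number of Hmox1 UMIs after thinning each cell to 1500 UMIs, in Mø cluster 2, Mø cluster 1 and M-MDSC 1, with the last bar holding 15 or more. Cells at 0 make up 47.2% of APOE2 and 59.4% of APOE4 cells in Mø cluster 2, and 82.6% and 92.2% in Mø cluster 1.

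In Mø cluster 2 and M-MDSC 1, cells high in Hmox1 were also high in both ferritin chains at equal depth. In Mø cluster 2 of APOE2, the 184 cells with no Hmox1 UMI at 1500 UMIs averaged 15.8 Fth1 and 10.5 Ftl1 UMIs, the 143 cells with 1 or 2 averaged 19.2 and 12.9, and the 63 cells with 3 or more averaged 50.5 and 28.0. In APOE4 the 92 cells at 0 averaged 16.96 Fth1 and 8.93 Ftl1 UMIs, the 46 cells between averaged 20.2 and 10.4, and the 17 cells with 3 or more averaged 70.5 and 30.2. M-MDSC 1 showed the same order in both libraries, with mean Fth1 of 64.7, 95.3 and 131 UMIs in APOE2 and 42.6, 53.5 and 161 in APOE4, where the last value rests on 5 cells. In Mø cluster 1 the cells with 1 or 2 Hmox1 UMIs did not exceed those at 0 in Fth1: its mean was 19.4, 18.8 and 43.6 UMIs in APOE2 and 25.5, 23.1 and 56.5 in APOE4, with 10 and 2 cells at 3 or more Hmox1 UMIs. Mean Ftl1 in Mø cluster 1 did rise at each step: 8.49, 10.5 and 19.5 UMIs in APOE2 and 6.57, 7.65 and 24 in APOE4. Since labels and these genes come from the same cells, these means are a description within each library.

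Blvrb (ENSMUSG00000040466, chr7:27447978-27466144, plus strand) encodes biliverdin reductase B, a flavin and biliverdin reductase. Among the 19 labels it was highest in Mø cluster 2 (310 CPM in APOE2 and 289 in APOE4) and Mø cluster 1 (256 and 175 CPM), with Monocytes 1 at 156 and 107 CPM and Monocytic DCs at 139 and 83.3 CPM. The Skin resident Mø label (47 and 8 cells) had 275 and 164 CPM. The ratio in Mø cluster 2 was 0.932 (interval 0.836 to 1.04), which includes 1. It was 0.684 (0.614 to 0.761) in Mø cluster 1, 0.687 (0.591 to 0.797) in Monocytes 1, 0.601 (0.510 to 0.706) in Monocytic DCs and 0.577 (0.337 to 0.964) in M-MDSC 1, where the counts were 46 and 24 UMIs. In pDCs the level was higher in APOE4, at 70.7 and 99.5 CPM (ratio 1.41, 1.05 to 1.91). In total 13 of 18 labels had a ratio below 1. Blvrb was called lower in Monocytic DCs, M-MDSC 1 and CD8+ T cells (7 and 14 UMIs) and higher in CD4+ T cells (10 and 21 UMIs), where 9.69% of all genes were called higher; the intervals in both T cell labels included 1.

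Fth1 (ENSMUSG00000024661, chr19:9980598-9985098, plus strand) encodes the ferritin heavy chain, which oxidises iron for storage. It was highest in M-MDSC 1, at 48062 CPM in APOE2 and 31452 CPM in APOE4, or 4.81% and 3.15% of all UMIs of the label. The smaller label M-MDSC 2, with 36 and 190 cells, had 38807 and 20523 CPM, and G-MDSC 1 had 20697 and 15625 CPM. Monocytes 1 had 15882 and 20361 CPM, Mø cluster 2 14975 and 18338 CPM, and Mø cluster 1 13120 and 16894 CPM. NKT cells were lowest at 1828 and 1736 CPM.

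The direction of the Fth1 difference split by label. The APOE4 level was lower in M-MDSC 1 (ratio 0.654, interval 0.644 to 0.665) and G-MDSC 1 (0.755, 0.724 to 0.787). It was higher in Mø cluster 1 (1.29, 1.27 to 1.30), Monocytes 1 (1.28, 1.27 to 1.30), Mø cluster 2 (1.22, 1.21 to 1.24) and Monocytes 2 (1.13, 1.11 to 1.15). Over the 19 labels, 8 intervals lay above 1 and 9 below, and M-MDSC 1 was the label past 1.5-fold. Neutrophil markers in M-MDSC 1 moved the same way, from 50057 to 42624 CPM, while in G-MDSC 1 they were at 144085 and 144532 CPM. Their part was not tested.

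Ftl1 (ENSMUSG00000050708, chr7:45457944-45459884, minus strand) encodes the ferritin light chain, which helps the iron core to form. Among the 19 labels it was highest in Mø cluster 2 (9693 and 9033 CPM), followed by M-MDSC 1 (6809 and 6709 CPM) and Mø cluster 1 (6008 and 4664 CPM). Of the smaller labels, Basophils (12 and 11 cells) had 6245 and 6710 CPM. The ratio was below 1 in 16 of 19 labels and past 1.5-fold in 0 of them. It was 0.730 (interval 0.711 to 0.751) in Monocytic DCs, 0.757 (0.735 to 0.780) in Monocytes 2, 0.776 (0.760 to 0.793) in Mø cluster 1, 0.841 (0.820 to 0.862) in Monocytes 1 and 0.932 (0.914 to 0.950) in Mø cluster 2. In M-MDSC 1 it was 0.985 (0.950 to 1.02). In pDCs it was 1.11 (1.05 to 1.19).

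The balance of the 2 ferritin chains was taken as the ratio of Fth1 to Ftl1 UMIs, each counted at the 3′ end and not corrected for length, so its change between libraries is read and not its absolute size. In macrophage labels together it was 1.83 in APOE2 and 2.76 in APOE4, a change of 1.51 times (interval 1.48 to 1.53). In the monocyte labels it went from 3.15 to 4.60 (1.46 times, 1.43 to 1.49). In the MDSC labels it went the other way, from 6.33 to 4.39 (0.694 times, 0.671 to 0.717). Dendritic cells had 2.86 and 3.42 (1.19 times), T cells 3.57 and 3.09 (0.865 times) and NK cells 2.44 and 2.52 (1.03 times, 0.949 to 1.13).

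By label the change was 1.66 times in Mø cluster 1 (2.18 to 3.62), 1.52 in Monocytes 1 (3.36 to 5.12), 1.49 in Monocytes 2 (3.49 to 5.19), 1.31 in Mø cluster 2 (1.54 to 2.03) and 1.31 in Monocytic DCs (2.203 to 2.893). It was 0.664 times in M-MDSC 1 (7.06 to 4.69), 0.795 in G-MDSC 1 (4.32 to 3.43) and 0.751 in pDCs (7.57 to 5.68). Of 19 labels, 10 intervals lay above 1, 4 below and 5 included 1. Migratory DCs had the lowest ratios of these labels, 0.961 and 1.09.

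**Figure D3:**
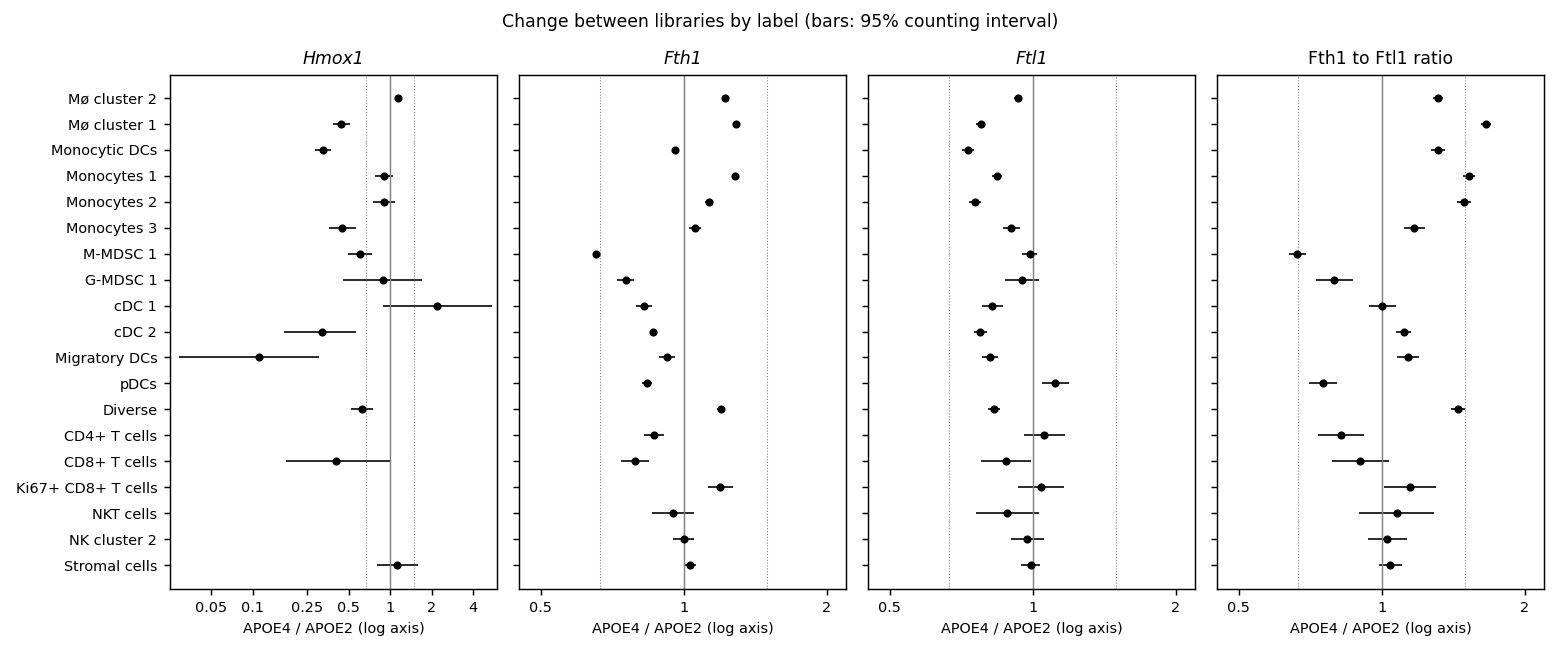
APOE4 to APOE2 ratio (log axis) of Hmox1, Fth1, Ftl1 and the Fth1 to Ftl1 ratio by label, with 95% counting intervals, a solid line at 1 and dotted lines at 1.5-fold in either direction; labels with fewer than 20 Hmox1 UMIs are not drawn in its panel. Fth1 lies above 1 in the macrophage labels (1.29 and 1.22) and below 1 in M-MDSC 1 (0.654), while Ftl1 lies below 1 in 16 of 19 labels.

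Slc40a1 (ENSMUSG00000025993, chr1:45908068-45926523, minus strand) encodes ferroportin, the known exporter of iron from cells. Its highest level was not in macrophages but in G-MDSC 1, at 315 CPM in APOE2 (82 UMIs, 57 of 146 cells) and 306 CPM in APOE4 (74 UMIs, 47 of 126 cells). M-MDSC 1 followed with 111 CPM (98 UMIs) and 145 CPM (116 UMIs). The ratios were 0.971 (interval 0.699 to 1.35) and 1.31 (0.991 to 1.73), so no difference between the libraries was detectable in either label at this depth. Of the smaller labels, G-MDSC 2 (29 and 28 cells) had 7 and 20 UMIs, a ratio of 3.78 (1.54 to 10.6). M-MDSC 2 (36 and 190 cells) had 4 and 39 UMIs, a ratio of 1.69 (0.610 to 6.52). The 3 monocyte labels together had 2 and 16 UMIs.

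In macrophages Slc40a1 UMIs came from few cells. Mø cluster 2 had 72 UMIs in 19 cells of APOE2, with 27 in the highest cell, and 43 UMIs in 6 cells of APOE4, with 20 in the highest. That gave 17.2 and 26.8 CPM, a ratio of 1.56 (interval 1.04 to 2.31), with 7.80% of all genes called higher. Without the highest cell of each library the log2 fold was 0.42, down from 0.64, which is below the 1.5-fold limit. The level was called lower in Mø cluster 1 (9.29 and 4.99 CPM, ratio 0.537, 0.267 to 1.00) and Monocytic DCs (11.7 and 4.93 CPM, 0.422, 0.205 to 0.804). Over Mø cluster 1, Mø cluster 2 and Monocytic DCs, the 46 APOE2 cells with an Slc40a1 UMI had 3124 CPM of Hmox1, against 437 CPM in the 1066 cells without. The 12 APOE4 cells with one had 7729 CPM of Hmox1, against 183 CPM in 514 cells. Fth1 was at 25917 and 11758 CPM in APOE2 and at 51257 and 13034 CPM in APOE4, and Ftl1 at 12977 and 6218 CPM and at 25122 and 4456 CPM. Median depths were 13434 and 11381 UMIs in APOE2 and 17204 and 10566 in APOE4. As whole labels, Mø cluster 2 had 1277 and 1452 CPM of Hmox1, against 219 and 96.7 CPM in Mø cluster 1. The part of this label mix, and of single cells high in Hmox1, was not tested. In the MDSC labels Hmox1 was at 247 CPM in the 140 APOE2 cells with an Slc40a1 UMI and 219 CPM in the 586 without, and at 186 and 115 CPM in APOE4, while Fth1 was lower in the cells with one (31700 and 37148 CPM, then 22290 and 24174 CPM). G-MDSC 1, the label highest in Slc40a1, had 20697 and 15625 CPM of Fth1, against 48062 and 31452 CPM in M-MDSC 1. The part of this label mix was not tested.

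Slc11a1 (ENSMUSG00000026177, chr1:74375195-74386062, plus strand) encodes NRAMP1, which moves iron and manganese out of the phagosome of macrophages and neutrophils. It was highest in G-MDSC 1 (277 and 227 CPM) and M-MDSC 1 (221 and 160 CPM), and next in Monocytes 3 (195 and 134 CPM). Mø cluster 2 (103 and 106 CPM), Monocytes 1 (103 and 105 CPM) and Monocytes 2 (102 and 102 CPM) did not differ beyond counting error. The APOE4 level was lower in M-MDSC 1 (ratio 0.725, interval 0.576 to 0.911) and Monocytes 3 (0.687, 0.555 to 0.8496), and higher in Mø cluster 1 (68.6 and 93.2 CPM, 1.36, 1.15 to 1.60). None of the 9 labels with enough UMIs reached 1.5-fold.

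Tfrc (ENSMUSG00000022797, chr16:32608920-32632794, plus strand) encodes transferrin receptor 1, which takes up iron bound to transferrin and is known to be high in dividing cells. Among the labels with at least 50 cells it was highest in pDCs (99.9 CPM from 89 UMIs, and 104 CPM from 176 UMIs, ratio 1.04, interval 0.799 to 1.35). The Skin resident Mø label, with 47 and 8 cells, had 180 and 219 CPM. Ki67+ CD8+ T cells had 49.5 and 30.7 CPM (ratio 0.621, 0.368 to 1.04). M-MDSC 1 went from 53.3 CPM (47 UMIs) to 20.04 CPM (16 UMIs), a ratio of 0.376 (0.199 to 0.676). Mø cluster 1 (12.3 and 14.2 CPM) and Mø cluster 2 (14.3 and 19.3 CPM) were low, with intervals of the ratio that included 1. Besides M-MDSC 1, Tfrc was called lower in Ki67+ CD8+ T cells, where 9.73% of all genes were, and in Monocytes 2 (15 and 21 UMIs, beside 10.5%). It was called higher in CD8+ T cells (6 and 40 UMIs, beside 12.9%) and Stromal cells (9 and 13 UMIs, beside 10.4%), and the intervals of these 4 ratios included 1.

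Counted over all 8 genes, M-MDSC 1 had 4 of 8 called lower in APOE4 (Hmox1, Blvrb, Fth1 and Tfrc) and 0 higher, beside 10.1% of all genes called lower and 16.2% higher. Monocytic DCs had 3 lower (Hmox1, Blvrb and Slc40a1) beside 9.97%, and 0 higher beside 8.09%. Mø cluster 1 had 2 lower (Hmox1 and Slc40a1) beside 9.54%, and 0 higher beside 8.94%. Mø cluster 2 had 1 higher (Slc40a1) beside 7.80% and 0 lower beside 8.53%. The median log2 fold of the 8 genes was -0.54 in M-MDSC 1, -0.51 in Monocytic DCs, -0.27 in Mø cluster 1 and 0.11 in Mø cluster 2, against medians over all genes of 0.09, 0.008, 0.006 and -0.0004.

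With labels joined into classes, 0 of 8 genes were called in macrophages (7.76% of all genes higher, 8.02% lower) and 0 of 7 in monocytes (7.26% and 10.4%). With cells thinned to 1500 UMIs, Hmox1 was at a log2 fold of -0.62 and Slc48a1 at -0.74 in macrophages, both past the limit, against -0.15 and -0.28 as found. In the MDSC class 3 of 8 were called lower (Hmox1, Fth1 and Tfrc) beside 12.5% of all genes, and 0 higher beside 12.1%. In dendritic cells, of 7 tested, Tfrc was called higher (19.3 and 31.7 CPM, ratio 1.64, 1.34 to 2.01) beside 10.7%, and Hmox1 lower (15.1 and 6.45 CPM, ratio 0.428, 0.299 to 0.602) beside 7.28%. Within the labels of that class the Tfrc ratio was 1.04 in pDCs, 1.14 in cDC 1 and 0.890 in cDC 2, with intervals that included 1, and Migratory DCs had 7 and 0 UMIs. The label with the highest level, pDCs, had 111 cells in APOE2 and 205 in APOE4. T cells (6 tested, 7.89% and 8.82%) and NK cells (5 tested, 10.8% and 6.93%) had 0 called. The median log2 fold of the tested members was -0.05 in macrophages, -0.33 in monocytes, -0.09 in dendritic cells, -0.50 in the MDSC class, -0.26 in T cells and -0.05 in the NK class. In the same order, the medians over all genes were 0.006, -0.043, 0.084, -0.004, -0.012 and 0.081.

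When the macrophage and monocyte labels were joined, Hmox1 (481 and 281 CPM), Blvrb (224 and 143 CPM) and Slc48a1 (79.5 and 49.1 CPM) were called lower in APOE4, 3 of 8 beside 13.4% of all genes, and 0 higher beside 7.82%. Their ratios were 0.585, 0.638 and 0.617. With the same mix of labels in both libraries they were 0.958, 0.808 and 0.823, and none was past 1.5-fold. Ftl1 went from 0.705 to 0.841, and Fth1 was 1.20 as found and 1.22 at the same mix. Slc40a1 turned from 0.732 to 1.23 and Tfrc from 0.870 to 1.08. The joined Hmox1 values cover unlike labels, with ratios of 0.442 in Mø cluster 1 and 0.450 in Monocytes 3. Monocytes 1 and 2 were at 0.903 and 0.899, and Mø cluster 2 was at 1.14. With equal weight per label, all 3 genes called lower in the joined labels kept their direction, and 0 stayed past 1.5-fold.

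**Figure D4:**
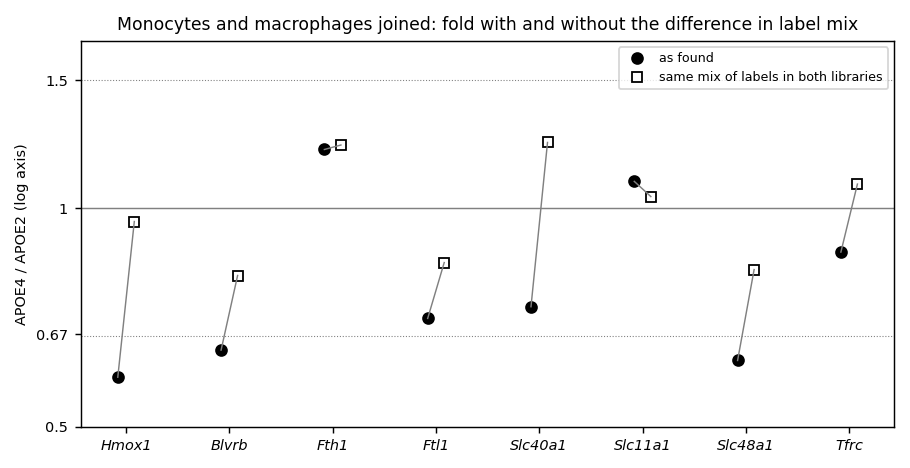
APOE4 to APOE2 ratio (log axis) of the 8 genes in joined monocyte and macrophage labels, as found (filled circles) and with the label mix set equal (open squares), with lines at 1 and at 1.5-fold. Hmox1 moves from 0.585 to 0.958, while Fth1 stays near 1.2 (1.20 and 1.22). By label the Hmox1 ratio runs from 0.442 (Mø cluster 1) to 1.14 (Mø cluster 2).

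A further 52 genes of heme and iron metabolism in 10 lists were counted the same way. In macrophages 2 of 44 tested were higher (all genes 7.76%) and 2 lower (all genes 8.02%): Cd163, the receptor for haemoglobin bound to haptoglobin, went from 37.7 to 15.2 CPM (ratio 0.403, interval 0.304 to 0.527), and Trf, transferrin, from 304 to 156 CPM (0.514, 0.472 to 0.559). Members of the lists with fewer than 100 UMIs are named here and below only to complete a count, after their values were seen: the 2 higher in macrophages were Cp, ceruloplasmin (40 and 41 UMIs, ratio 2.33), and Uros, of heme synthesis (45 and 33 UMIs, 1.67). In monocytes 3 of 43 were higher (all genes 7.26%) and 8 lower (all genes 10.4%). Trf went from 299 to 105 CPM (0.351, 0.323 to 0.382), Lrp1, a receptor for heme bound to hemopexin, from 377 to 227 CPM (0.602) and Slc39a14, a metal importer, from 44.3 to 19.8 CPM (0.447). Slc11a2, the importer DMT1, had a ratio of 0.550, and Glrx5 and Nfs1, of iron-sulphur cluster assembly, had 0.644 and 0.664. Alas1, the first enzyme of heme synthesis, was higher at 47.2 and 75.1 CPM (1.59, 1.37 to 1.85), and Lcn2, which binds siderophores, at 1.79 and 13.03 CPM (10 and 102 UMIs). The third higher was Steap4 (7 and 19 UMIs). Monocyte markers moved as well, from 4042 to 10014 CPM in Monocytes 1, and their part was not tested.

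In dendritic cells 2 of 41 were higher (all genes 10.7%) and 5 lower (all genes 7.28%), with Lrp1 at 78.7 and 31.3 CPM (ratio 0.397), Trf at 84.2 and 41.1 CPM (0.488), the cystine carrier Slc7a11 at 92.1 and 42.9 CPM (0.466) and Keap1, which holds back NRF2, at 32.4 and 48.7 CPM (1.502). Srxn1, sulfiredoxin, had a ratio of 0.489. The others were Spic, higher (11 and 16 UMIs), and Abcg2, lower (48 and 25 UMIs). In the MDSC class 3 of 28 were higher (all genes 12.1%) and 7 lower (all genes 12.5%). Bach1, a heme-sensing repressor known to act on Hmox1, was at 85.2 and 160 CPM (1.88, 1.51 to 2.34), Steap4, a metalloreductase, at 63.9 and 171 CPM (2.67, 2.10 to 3.41), Trf at 160 and 84.9 CPM (0.531) and Srxn1 at 48.1 and 18.9 CPM (0.392). Keap1 was the third higher (11 and 20 UMIs). T cells had 1 of 39 higher (all genes 7.89%) and 4 lower (all genes 8.82%), with Alad, of heme synthesis, at 33.8 and 19.5 CPM (0.578). The rest there were Uros, higher, and Trf, Abcb8 and Slc7a11, lower, each with at most 68 UMIs. NK cells had 0 of 36 higher (all genes 10.8%) and 4 lower (all genes 6.93%), among them Alas1, Slc39a14 and Slc7a11, each with at most 60 UMIs. Trf, the ligand that Tfrc takes up, was thus lower in APOE4 in the macrophage, monocyte, dendritic cell and MDSC classes, and in T cells on at most 68 UMIs. These are sums over joined labels, and the part of the label mix in them was not tested. In joined monocyte and macrophage labels 4 of 46 were higher (all genes 7.82%) and 6 lower (all genes 13.4%). Of these, Hp, haptoglobin, was at 116 and 235 CPM joined, but its ratio was 0.909 within macrophages and 1.24 within monocytes, neither of them called. Steap3, a ferrireductase (0.667 and 0.694), and Slc39a8, a metal importer (1.03 in macrophages, 6 and 3 UMIs in monocytes), were likewise called in the joined labels only. The other higher genes, Alas1, Lcn2 and Steap4, were each called in monocytes too.

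The genes whose level over the 19 labels was most like each member's were found by Pearson's r of log2(CPM + 1), mean of both libraries, among 7248 genes. Labels share library, depth and cells, so r is a description. For Hmox1 they were Rab11fip5 (0.908), Atp6v1a (0.905) and Ier3 (0.904), and for Blvrb Rab11fip5 (0.923), Cltc (0.905) and Rin2 (0.903). For Fth1 they were Lamp2 (0.9404), Bst1 (0.936) and Mitf (0.930), and for Ftl1 Gm10116 (0.976), Sgpl1 (0.966) and Bri3 (0.936). Whether Gm10116 (2696 UMIs, against 277650 of Ftl1) shares sequence with Ftl1 was not tested, so its likeness is uncertain. For Slc40a1 they were Alox5 (0.884), Mmp9 (0.862) and Lrg1 (0.856), for Slc11a1 Gm5150 (0.956), Thbs1 (0.951) and Tarm1 (0.947), for Slc48a1 Vat1 (0.856), Lipa (0.853) and Mfsd11 (0.848), and for Tfrc Lrrc47 (0.906), Mtdh (0.842) and Rpia (0.839). Among the members, Hmox1 was most like Ftl1 (0.87), and Tfrc had a negative r with 6 of the other 7 (from -0.18 with Fth1 to -0.45 with Ftl1) and 0.16 with Slc48a1.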

How the data were processed

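CD45+ leukocytes of 2 pooled 10x 3′ libraries, 1 per APOE genotype, were analysed. Values in the deposited matrices are UMI counts, not normalized, made with Cell Ranger 3.0.1 per the file headers, and mm10 and Seurat 3.0.2 are named in the submitters' processing notes. The deposited cell table gave the authors' cell labels and the percent of mitochondrial UMIs. How the authors treated doublets is not given in the sources used here, and no doublet caller was run; leaving out the 10% of cells with the most UMIs in each label and library was an alternative. Barcodes without a label (398 and 304 in APOE2 and APOE4) were left out.

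UMIs were summed by label and library and divided by the label's total. Levels have exact Poisson intervals, shares exact binomial (Clopper-Pearson) intervals, ratios of counts the exact conditional binomial interval, and the Fth1 to Ftl1 change a normal interval on the log scale. A difference was called at 1.5-fold with at least 20 UMIs over both libraries. The ratio intervals were checked on simulated Poisson counts, the kind of counts that they assume. That check does not cover UMIs concentrated in single cells. Classes joined labels by name: Mø clusters 1 and 2, Monocytes 1 to 3, the DC labels without Monocytic DCs, M-MDSC and G-MDSC labels, T and NKT cells without the proliferating label, and NK clusters.

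The members and gene lists were chosen with earlier results of these data known. Named were all 8 members, the 3 genes most like each, and other pathway genes with at least 100 UMIs in a class, a 1.5-fold difference and an interval without 1, at most 6 per class and direction. Alternatives were thinning to 1500 UMIs, cells under 5% mitochondrial UMIs, equal weight per label, other denominators and scaling, leaving out cells with haemoglobin UMIs, other thresholds and, chosen after seeing the data, leaving out the cell with the most UMIs of the gene. Python 3.11.15 with numpy 2.4.6, scipy 1.17.1, pandas 2.3.3 and matplotlib 3.10.9 was used.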

Additional observations from a re-analysis of the deposited data

Results flagged for a closer look

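For 3 of the genes the counting intervals of the APOE4 to APOE2 ratio lay wholly above 1 in at least 1 cell class and wholly below 1 in another. With 1 library per genotype none of these differences between classes was tested. For Fth1 it was 1.25 in the macrophage class and 0.659 in the MDSC class. For Slc11a1 it was 1.17 in the macrophage class and 0.745 in the MDSC class. For Tfrc it was 1.64 in the DC class and 0.449 in the MDSC class. By label the Tfrc ratio was 1.04 in pDCs, 1.14 in cDC 1 and 0.890 in cDC 2, with intervals that included 1. Migratory DCs had 7 and 0 UMIs. With equal weight per label the direction in the DC class turned, as given below. The part of the label mix in the DC value was not tested.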

How the results depend on the processing

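No paired analysis was possible because each genotype has 1 pooled library. The 5 differences called in classes kept their direction under every alternative except equal weight per label, where 4 did: Tfrc in the DC class was then at a log2 fold of -0.58, a mean that includes Migratory DCs at 7 and 0 UMIs, while the other 3 labels had ratios of 1.04, 1.14 and 0.890. The 22 called in labels kept it under the other settings except without the top cell (20) and without the 10% of cells with the most UMIs (21): Tfrc in Stromal cells was at -0.048 and -0.062, and Hmox1 in cDC 1 at -1.43 without the top cell. Thinning could be measured for 9 of the 22, and all 9 kept it. Fewer stayed past 1.5-fold: 16 of 22 without the top cell, 18 without the 10% of cells with the most UMIs, 19 under the mitochondrial limit and 7 of 9 thinned. For counts of called members, thinning gave 2 lower in macrophages and 1 in monocytes. Leaving out the 10% of cells with the most UMIs gave 2 lower in monocytes and 2 in T cells, and a mitochondrial limit of 5% gave 1 lower in T cells. Equal weight gave 0 higher in DC and 1 lower in MDSC, as did a 2-fold limit (0 and 1). No UMI minimum gave 1 higher in monocytes, 2 lower in DC, 1 in T cells and 2 in NK cells. The members' median log2 fold was -0.39 thinned in macrophages, and in NK cells -0.10 with the other denominator and -0.14 with scaling by the median gene. The log2 change of the Fth1 to Ftl1 ratio was 0.62 thinned and 0.56 at equal weight in macrophages, and 0.58 and 0.47 in monocytes. In DC it was 0.19 thinned, 0.21 under the mitochondrial limit and -0.019 at equal weight. In MDSC it was -0.59 without the top cells and -0.46 at equal weight, in T cells -0.36 thinned, and in NK cells -0.19 thinned, -0.18 without the 10% of cells with the most UMIs and -0.078 without the top cells. The causes were not tested. Depth limits Slc40a1 and Tfrc, which rest on fewer than 100 UMIs in most labels.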
